A study of Macaca mulatta with 56 samples.

Results

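The amygdala was compared with the hippocampus in brains of old female rhesus macaques, animal by animal. The series holds 56 libraries of polyadenylated RNA from 14 animals, each sampled in 4 regions: amygdala, hippocampus, and the occipital and prefrontal cortex. The 14 amygdala and 14 hippocampus libraries form 14 pairs. All animals were 19.4 to 23.2 years old and ate a Western-style diet (36% of calories from fat and 18.5% from sugars). They lost their ovaries and uterus about 6 weeks after the diet began. In 7 of them (HT) implanted capsules released estradiol, with serum estradiol at 82.1 pg/mL on average. In the other 7 (OvH) the capsules were empty and serum estradiol averaged 6.6 pg/mL. The series text names a study of 30 months in one place and averages serum estradiol over 32 months in another. There was no group with intact ovaries, on ordinary chow or of young age, so every value here belongs to old, ovariectomized animals on this diet. Each library came from about 30 mg of pulverized tissue, and the labels do not say which nuclei of the amygdala or which fields of the hippocampus were taken. The features are rows of the deposited table, and a row entered when its mean log2(value + 1) over hippocampus and both cortical regions lay within 2 (4-fold) of that in amygdala. Of 17807 rows 13520 met this level rule and 13504 of them had a mean of at least 10 and were tested. At the edge of the rule, MC4R stood just inside (1.99) and GUCY2D just outside (-2.01).

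The amygdala is a group of nuclei in the temporal lobe that attaches emotional value to stimuli. It holds cortex-like nuclei of glutamatergic neurons beside striatum-like nuclei of GABAergic neurons rich in neuropeptides. The hippocampus lies just behind it, stores episodic and spatial memory, and is built of the dentate gyrus and the pyramidal cell fields, whose main neurons are glutamatergic. Both regions carry receptors for estradiol and for stress hormones, and both sit beside the ventricle, so that hippocampal tissue can hold choroid plexus and ependyma.

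The rows of the table did not all hold the same transcript in both regions, and this decided which gene names were used. The rows stood in the order of a hash table whose positions are computed from the identifier text, with 17806 of 17806 consecutive steps in that order. Among rows whose identifier was alone in its position, out of 26870 known identifiers, 97.5% of 10002 met the level rule. The mean levels of both regions had a Spearman correlation of 0.964 there, across genes, which are not independent replicates. Among the 7805 rows whose identifier shared its position with another, 48.3% met the rule and the correlation was 0.0818. Amygdala stood more than 64-fold from the mean over hippocampus and both cortical regions in 3042 rows with a shared position. The same held in 10 rows with a position of their own. Genes are therefore named, and gene groups counted, only from rows alone in their position, which were 9737 of the 13504 tested rows (72.1%). When every possible identifier number up to 70000 was allowed for, 5063 rows were alone and 97.6% of them met the level rule.

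**Figure D1:**
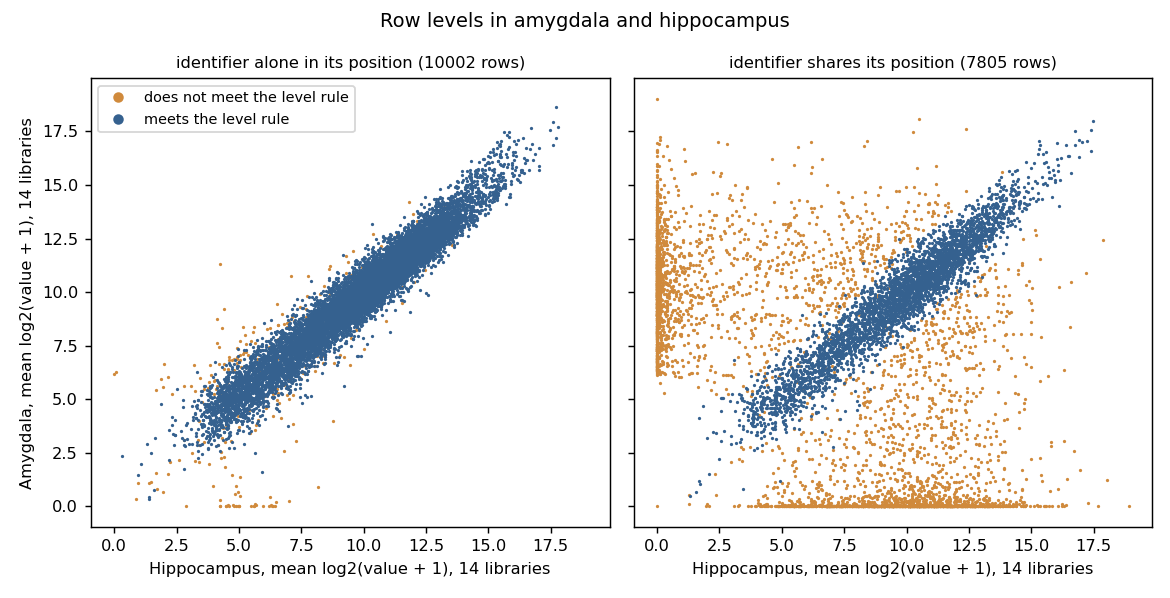
Mean log2(value + 1) of each row in the 14 hippocampus libraries (x axis) and the 14 amygdala libraries (y axis), for rows alone in their table position (left) and rows that share it (right), with rows that meet the level rule in blue. On the left 97.5% of rows meet the rule, and on the right 48.3%. On the right 3042 rows differ by more than 64-fold between amygdala and the mean over hippocampus and both cortical regions.

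Amygdala libraries held 42.2 to 93.3 mega-reads (median 55.1) and hippocampus libraries 34.6 to 82.1 (median 62.1). Values are upper-quartile normalized reads as deposited, and means are given ± SD over the 14 libraries of a region. Differences are paired log2 differences of amygdala minus hippocampus, and each adjusted p comes from limma unless another tool is named. The libraries labelled hippocampus of animals 30 and 43, both OvH, went against their label. Over the rows alone in their position, the median absolute log2 distance of animal 30 was 0.571 to the mean of the other hippocampus libraries and 0.448 to prefrontal cortex. For animal 43 the distances were 0.508 and 0.331. The 12 other hippocampus libraries lay at 0.202 to 0.367 from their own region and each was nearer to it than to any other region. RORB, a transcription factor of cortical layer neurons, stood at 4278 and 1727 in the libraries of animals 30 and 43 and at 20.1 to 195 in the other 12. These pairs stayed in the main comparison, and results are also given without them. In amygdala the library of animal 32 lay farthest from the others (0.536, against 0.229 to 0.405 in the rest). Hippocampus libraries of animals 33 and 40 carried the most transcript of TTR, the choroid plexus carrier of thyroid hormone, at 1325300 and 1462300 against 27.0 to 49610 in the other 12.

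Most rows differed between the regions, in both directions and by similar numbers. Of the 13504 tested rows 8737 (64.7%) passed an adjusted p of 0.05 in limma's paired test within animals, 4452 (33.0%) higher in amygdala and 4285 (31.7%) higher in hippocampus. A difference of at least 2-fold as well was seen in 1280 rows higher in amygdala (9.48%) and 923 higher in hippocampus (6.84%). Among the 9737 rows alone in their position 3163 (32.5%) were higher in amygdala and 3082 (31.7%) higher in hippocampus. Their median difference was 0.01 and their median absolute difference 0.50 on the log2 scale, and these values are the background for each gene group below. At 2-fold the counts there were 836 (8.59%) and 578 (5.94%). With libraries scaled to equal totals the median of these rows moved to -0.10. Over all tested rows the split of calls turned from 51.0% to 43.6% higher in amygdala (3735 higher, 4824 lower). Differences near 0 therefore have no firm direction. Without animals 30 and 43, 9168 rows passed, 1558 of them at least 2-fold higher in amygdala and 1163 at least 2-fold higher in hippocampus. In bulk tissue a difference in the number of cells of a type and a difference in RNA per cell cannot be told apart.

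**Figure D2:**
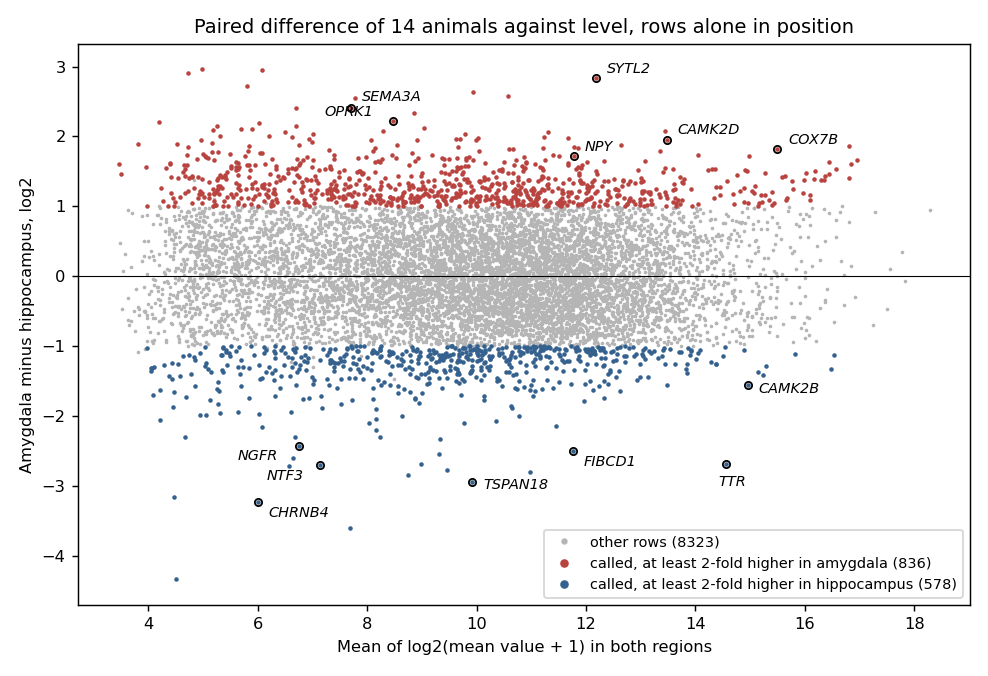
Paired log2 difference, amygdala minus hippocampus, of the 9737 tested rows alone in their position (y axis) against the mean of the log2 levels in both regions (x axis). Red points (836) and blue points (578) passed the test with at least a 2-fold difference, and circles mark 13 of the genes described in the text.

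Genes that mark hippocampal fields and the dentate gyrus were mostly higher in hippocampus. Of 18 tested, 3 were higher in amygdala, 13 were higher in hippocampus and 2 did not pass. The same counts were found without animals 30 and 43, and the median difference moved from -0.96 to -0.98. TSPAN18 (ENSMMUG00000000368), a tetraspanin membrane protein, ran from 142 to 645 in amygdala (median 302) and 129.5 to 5454 in hippocampus (median 3249.9). The hippocampus libraries of animals 30 and 43 were the only ones below 1000 (136 and 129.5), and the other 12 (1611 to 5454) lay above every amygdala library. The paired difference was log2 -2.95 ± 0.41 SE, adjusted p = 9.68e-06, and -3.55 without those animals (adjusted p = 1.39e-08). FIBCD1 (ENSMMUG00000012713), a receptor for acetylated sugars expressed in pyramidal cells, averaged 1371 ± 1279.8 in amygdala and 8805 ± 5026 in hippocampus, with a difference of log2 -2.51 ± 0.58 SE, adjusted p = 0.00107. It was 226 and 340.0 in hippocampus of animals 30 and 43, against 4239 to 15186 in the others, and among those 12 pairs only the amygdala of animal 39 (5079) reached into the hippocampal range. Without animals 30 and 43 FIBCD1 differed by -3.33 (adjusted p = 6.99e-07). The adhesion receptor ADGRG2 followed the same order (log2 -2.85 ± 0.34 SE, adjusted p = 2.22e-06; -3.28 without animals 30 and 43). NEUROD2 (ENSMMUG00000001404), a transcription factor of excitatory neurons, ran from 388 to 1365 in amygdala (median 913) and 1588 to 4778 in hippocampus (median 3016). No amygdala library reached any hippocampus library. NEUROD2 differed by log2 -1.60 ± 0.17 SE, adjusted p = 6.84e-07. PROX1, the transcription factor of dentate granule cells, averaged 185 ± 87.4 in amygdala and 536 ± 295 in hippocampus (log2 -1.51, adjusted p = 3.59e-05). C1QL2, a secreted synaptic organizer of granule cells, averaged 1688 ± 875 in amygdala and 3925 ± 1984 in hippocampus (log2 -1.15, adjusted p = 0.000374). The members higher in amygdala were the homeobox gene MEIS2 (0.96), C1QL3 (0.77), a relative of C1QL2, and the potassium channel gene KCNK2 (2.03).

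Genes chosen as markers of amygdala nuclei split less clearly among those tested. The level rule limits how far amygdala may stand from the other regions, so it can leave out genes that stand out in amygdala. It left out 3 of the 16 amygdala markers alone in their position, and 2 of the 20 hippocampal markers. Of 13 tested, 6 were higher in amygdala, 1 was higher in hippocampus and 6 did not pass. Leaving out animals 30 and 43 kept both counts and moved the median difference from 0.19 to 0.26. COCH (ENSMMUG00000011514), the secreted matrix protein cochlin, ran from 1093 to 3295 in amygdala (median 1925) and 344 to 896 in hippocampus (median 489), and every amygdala library lay above every hippocampus library. COCH differed by log2 1.96 ± 0.13 SE, adjusted p = 4.29e-09. OPRK1 (ENSMMUG00000065247), the kappa opioid receptor, averaged 726 ± 246 in amygdala and 171 ± 119 in hippocampus and was higher in amygdala in 14 of 14 animals (log2 2.22 ± 0.20 SE, adjusted p = 1.61e-07). Its hippocampal values were highest in animals 30 and 43 (509 and 349), and without those the regions did not overlap. SLC17A6, the vesicular glutamate transporter VGLUT2, was higher in amygdala in 14 of 14 animals, with 3558 ± 1038 in amygdala and 654 ± 373 in hippocampus (log2 2.58, adjusted p = 4.13e-07). LYPD1, a modulator of nicotinic receptors, was higher in 13 animals (1.72), and TAC1, the precursor of substance P, in 11 (0.80). Cortex levels differed among these genes. Prefrontal and occipital medians were 577 and 3545 for SLC17A6 (amygdala 3476) and 1528.5 and 2524 for TAC1 (amygdala 2815). They were 504 and 310 for OPRK1 (amygdala 726), 496 and 993 for COCH (1925) and 45.0 and 8.94 for LYPD1 (96.8). SLC17A6 in occipital cortex thus stood near its amygdala level. TSHZ1, a transcription factor of intercalated cells, was lower in amygdala in 14 of 14 animals (log2 -1.10, adjusted p = 1.08e-06). Of 9 striatal-like and intercalated cell markers, 4 were higher in amygdala, 2 were higher in hippocampus and 3 did not pass. These genes had a median difference of 0.13, and 4 and 1 passed without animals 30 and 43 (median 0.12). ARPP21 (ENSMMUG00000015959), a phosphoprotein of dopamine-responsive neurons, ran from 13060 to 26427 in amygdala (median 15237) and 5849 to 12514 in hippocampus (median 7025) without overlap. ARPP21 differed by log2 1.16 ± 0.13 SE, adjusted p = 1.18e-06. The striatal signalling gene PPP1R1B stood at 0.09 (adjusted p = 0.547), and its sign turned with equal totals.

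**Figure D3:**
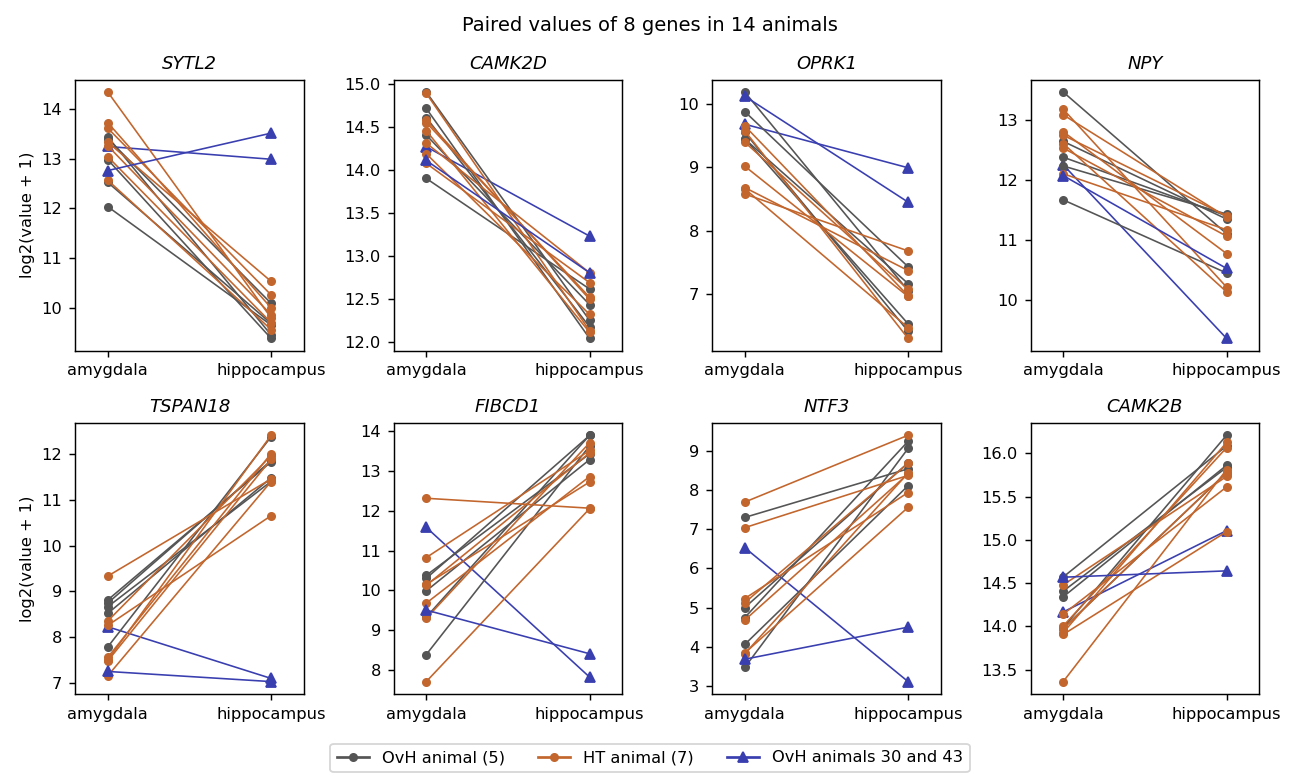
log2(value + 1) of 8 genes in the amygdala and hippocampus library of each of 14 animals, 1 line per animal, coloured by treatment. SYTL2, CAMK2D, OPRK1 and NPY fall from amygdala to hippocampus in most animals and TSPAN18, FIBCD1, NTF3 and CAMK2B rise, and the lines of animals 30 and 43 (triangles) depart from the others for SYTL2, TSPAN18, FIBCD1 and NTF3.

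The genes with the largest differences under the naming rule included synaptic, ligand and enzyme genes. SYTL2 (ENSMMUG00000012449), a vesicle trafficking protein that binds Rab27, ran from 4193 to 20695 in amygdala (median 9742) and 669 to 11677 in hippocampus (median 911), with a difference of log2 2.84 ± 0.33 SE, adjusted p = 1.6e-06. The 12 hippocampus libraries other than those of animals 30 and 43 held 669 to 1480.4, below all amygdala libraries, and without those animals the difference was 3.35 (adjusted p = 7.4e-10). Prefrontal cortex held 6272 to 9520 and occipital cortex 5282 to 14000. CAMK2D (ENSMMUG00000008587), the delta subunit of the calcium/calmodulin kinase II of synapses, averaged 22422 ± 4716 in amygdala and 5829 ± 1463 in hippocampus with no overlap. CAMK2D differed by log2 1.95 ± 0.14 SE, adjusted p = 1.36e-08. The beta subunit gene CAMK2B (ENSMMUG00000002433) went the other way at 18336 ± 3968 in amygdala and 55218 ± 14717 in hippocampus, again with no overlap. CAMK2B differed by log2 -1.57 ± 0.15 SE, adjusted p = 3.26e-07. Other genes higher in amygdala were the ADP-ribosyltransferase gene ART3 (2.55), KITLG, the ligand of the KIT receptor (2.12), the serine protease gene KLK8 (2.07) and the mitochondrial redox enzyme gene GLRX2 (1.98). They were higher in 12, 13, 14 and 14 of 14 animals in that order. ART3 had a median of 338 in amygdala, 267 in prefrontal cortex and 816 in occipital cortex. KITLG, KLK8 and GLRX2 had lower medians in both cortical regions than in amygdala. CRYBB3 (2.03), SHLD3 (1.95), CCDC178 (1.92) and the small nucleolar RNA SNORA81 (2.00), whose host gene may share its reads, were also among the 15 largest.

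On the hippocampal side, NTF3 (ENSMMUG00000014646), the neurotrophin NT-3, averaged 57.3 ± 63.6 in amygdala and 342 ± 193 in hippocampus. NTF3 differed by log2 -2.71 ± 0.53 SE, adjusted p = 0.000268. It stood at 7.6 and 21.6 in the hippocampus libraries of animals 30 and 43, against 188 to 679 in the others, and without these animals the difference was -3.38 (adjusted p = 7.11e-07). NGFR, the low-affinity receptor of neurotrophins, averaged 44.0 ± 38.2 in amygdala and 257 ± 158 in hippocampus (log2 -2.43, adjusted p = 2.69e-05). Hippocampus stood above cortex by 3.80 for NTF3 and 1.94 for NGFR on the log2 scale, a comparison that uses the same hippocampus libraries. REM2, a small GTPase that restrains calcium channels, differed by -2.72, the cerebellin gene CBLN3 by -2.69, the lipoxygenase gene ALOX15 by -2.55 and the elastin gene ELN by -2.30. The postsynaptic scaffold gene TANC1 averaged 811 ± 254 in amygdala and 3774 ± 1895 in hippocampus, SIPA1L3 641 ± 236 in amygdala and 2642 ± 1007 in hippocampus and the Wnt receptor gene FZD7 200.5 ± 103 in amygdala and 794 ± 359 in hippocampus. These 7 genes were lower in amygdala in 11 to 14 of 14 animals.

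Peptide genes split between the regions. Of 14 neuropeptide precursor and processing genes tested, 5 were higher in amygdala, 5 were higher in hippocampus and 4 did not pass. Counts without animals 30 and 43 were 5 and 6, and the median difference went from -0.10 to -0.08. NPY (ENSMMUG00000009818), neuropeptide Y, ran from 3241 to 11266 in amygdala (median 6055) and 654 to 2751 in hippocampus (median 2163), and all 14 amygdala libraries lay above all hippocampus libraries. NPY differed by log2 1.71 ± 0.17 SE, adjusted p = 4.22e-07. NXPH1, a secreted ligand of neurexins, was higher in amygdala in 14 animals (log2 1.34, adjusted p = 1.01e-06), the secretogranin gene SCG2 in 13 (log2 0.82, adjusted p = 0.000105) and PTHLH, a parathyroid hormone relative, in 13 (log2 0.81, adjusted p = 0.000255). The galanin gene GAL averaged 95.1 ± 68.6 in amygdala and 258 ± 146 in hippocampus and was higher in hippocampus (log2 -1.56, adjusted p = 0.000163), as were UCN, a stress peptide of the CRH family (log2 -0.69, adjusted p = 8.2e-05), the prohormone convertase gene PCSK1 (-0.94) and NMB (-1.11). With the mean of myelin markers as a covariate NMB (adjusted p = 0.0668) and TAC1 (0.0745) did not pass. That mean covered 16 tested markers, of which only 10 were alone in their position. The corticotropin releasing hormone gene CRH stood at -0.40 (adjusted p = 0.126) and the somatostatin gene SST at 0.34 (adjusted p = 0.0683). CRH passed without animal 35 (-0.53, adjusted p = 0.0342), with the myelin covariate (-0.74, adjusted p = 0.0133) and with all 56 libraries in 1 fit (adjusted p = 0.041). SST passed without animal 31 (adjusted p = 0.0336), 33 (0.0473) or 36 (0.0368) and with all libraries in 1 fit (0.0387).

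Of 15 peptide and hormone receptor genes, 6 were higher in amygdala, 2 were higher in hippocampus and 7 did not pass. On the log2 scale the median was 0.19, or 0.19 without animals 30 and 43 (5 and 4 passing). Without animals 33 and 40, 4 and 2 passed and the median was -0.034, so the median of this list has no firm direction. MC4R (ENSMMUG00000017258), the melanocortin receptor that restrains feeding, ran from 52.4 to 193 in amygdala (median 105) and 9.4 to 95.4 in hippocampus (median 18.8) and was higher in amygdala in 13 of 14 animals (log2 2.11 ± 0.28 SE, adjusted p = 5.01e-06). SSTR3 (ENSMMUG00000018853), a somatostatin receptor of neuronal cilia, averaged 682 ± 175 in amygdala and 1567 ± 353 in hippocampus with no overlap. SSTR3 differed by log2 -1.21 ± 0.11 SE, adjusted p = 1.14e-07. CRHR1, the receptor of corticotropin releasing hormone, was higher in amygdala in 11 animals (log2 0.55, adjusted p = 0.00585), but did not pass with the myelin covariate (adjusted p = 0.148) or in the HT pairs alone (0.0741). Among steroid receptors, the glucocorticoid receptor gene NR3C1 averaged 3721 ± 637 in amygdala and 3016 ± 1866 in hippocampus (log2 0.44, adjusted p = 0.0226), and it did not pass without animals 33 and 40 (adjusted p = 0.0619), with equal totals (0.11) or with the myelin covariate (0.172). Hippocampal values of NR3C1 were 9009.5 and 4521 in animals 30 and 43, and 1658.5 to 3029 in the other 12. Without animals 30 and 43 NR3C1 differed by 0.62 (adjusted p = 0.000337). The estrogen receptor beta gene ESR2 was low in both regions, with 38.6 ± 32.1 in amygdala and 17.8 ± 10.4 in hippocampus, and higher in amygdala in 13 of 14 animals (log2 0.86, adjusted p = 0.0114). ESR2 did not pass in the HT pairs alone (adjusted p = 0.109) or the OvH pairs alone (0.0538). ESR1, PGR, GPER1 and NR3C2 were not among the tested rows.

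Receptors for serotonin, noradrenaline and acetylcholine were mostly higher in hippocampus. Of 26 monoamine and acetylcholine genes, 4 were higher in amygdala, 15 were higher in hippocampus and 7 did not pass. The median difference was -0.50, and the counts were the same without animals 30 and 43 (median -0.58). CHRNB4 (ENSMMUG00000007541), the beta 4 subunit of nicotinic receptors, ran from 4.04 to 37.5 in amygdala (median 11.6) and 1.69 to 826 in hippocampus (median 223). CHRNB4 differed by log2 -3.24 ± 0.57 SE, adjusted p = 9.9e-05. It was 1.69 and 3.6 in hippocampus of animals 30 and 43, and without them the difference was -4.04. ADRA1D, an alpha 1 adrenergic receptor, averaged 54.2 ± 32.2 in amygdala and 762 ± 436 in hippocampus (log2 -3.61, adjusted p = 5.18e-07). HTR1A, the inhibitory serotonin receptor of pyramidal cells, averaged 292 ± 145 in amygdala and 907 ± 436 in hippocampus (log2 -1.68, adjusted p = 1.18e-05). Both were lower in amygdala in 14 of 14 animals, as were HTR6 (-1.60) and the muscarinic receptor gene CHRM1 (-1.34), and HTR7 was lower in 12 (-1.90). The members higher in amygdala were HTR1B, a serotonin autoreceptor (log2 1.59, adjusted p = 0.000526), the dopamine receptor gene DRD5 (log2 1.06, adjusted p = 0.00369), the adrenergic receptor gene ADRA2C (log2 0.82, adjusted p = 0.00205) and the cholinesterase gene BCHE (log2 0.67, adjusted p = 0.000398). DRD5 did not pass with the myelin covariate (adjusted p = 0.0515).

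Of 24 genes of glutamate transport, receptors and scaffolds, 5 were higher in amygdala, 12 were higher in hippocampus and 7 did not pass. The same counts were found without animals 30 and 43, and the median difference moved from -0.21 to -0.24. SLC17A7 (ENSMMUG00000014800), the vesicular glutamate transporter VGLUT1, averaged 62695 ± 14668 in amygdala and 142150 ± 47416 in hippocampus. SLC17A7 differed by log2 -1.12 ± 0.16 SE, adjusted p = 1.47e-05, opposite in direction to SLC17A6. The AMPA receptor subunit gene GRIA4 was higher in amygdala (3284 ± 804 in amygdala and 1843 ± 1306 in hippocampus, adjusted p = 0.000129), while GRIA2 stood at -0.06 (adjusted p = 0.753). CACNG8, an AMPA receptor auxiliary subunit abundant in hippocampus, averaged 258 ± 91.7 in amygdala and 928 ± 346 in hippocampus (log2 -1.82, adjusted p = 2.6e-07). CNIH2, another auxiliary subunit, differed by -0.94. The NMDA receptor genes GRIN1 (log2 -1.18, adjusted p = 1.22e-05) and GRIN2A (log2 -1.17, adjusted p = 3.3e-05) were higher in hippocampus in 14 of 14 animals each.

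Of 17 genes of GABA synthesis, transport and receptors, 1 was higher in amygdala, 5 were higher in hippocampus and 11 did not pass. Their median difference was -0.13, and -0.12 without animals 30 and 43 (counts of 4 and 5). GABRA2 (ENSMMUG00000003614), the alpha 2 subunit of the GABA-A receptor, ran from 3503 to 9800.3 in amygdala (median 6249) and 1553 to 4855 in hippocampus (median 2533) and was higher in amygdala in 14 of 14 animals (log2 1.30 ± 0.15 SE, adjusted p = 1.6e-06). The GABA-B receptor genes GABBR2 (log2 -1.23, adjusted p = 2.15e-05) and GABBR1 (log2 -0.39, adjusted p = 0.00219) and the inhibitory synapse adhesion gene NLGN2 (log2 -0.92, adjusted p = 1.82e-06) were higher in hippocampus. The GABA-synthesizing enzyme genes GAD1 (0.26, adjusted p = 0.0668) and GAD2 (0.17, adjusted p = 0.403) and the vesicular transporter gene SLC32A1 (-0.22, adjusted p = 0.281) did not pass, although GAD1 passed without animal 30 (0.35, adjusted p = 0.00259) or without animals 30 and 43 (0.36, 0.00271), in the HT pairs alone (0.36, 0.0422) and with all libraries in 1 fit (0.26, 0.0214). Of 13 interneuron markers, 3 were higher in amygdala, 3 were higher in hippocampus and 7 did not pass. These genes had a median difference of 0.22, and 5 and 2 passed without animals 30 and 43 (median 0.26). Beside NPY, the synuclein gene SNCG was higher in amygdala in 14 of 14 animals (log2 1.53, adjusted p = 4.77e-06), and the fast-spiking potassium channel gene KCNC1 (log2 -0.79, adjusted p = 0.00065) and RELN, the secreted protein reelin (log2 -0.45, adjusted p = 0.00401), were higher in hippocampus. RELN did not pass with the myelin covariate (adjusted p = 0.107). In hippocampus KCNC1 stood at 4251 and 3029 in animals 30 and 43, and at 1354 to 2641.5 in the others. Without those animals KCNC1 differed by -0.58 (adjusted p = 0.000755).

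Of 15 genes of presynaptic vesicle release, 3 were higher in amygdala, 5 were higher in hippocampus and 7 did not pass. The same counts were found without animals 30 and 43, and the median difference moved from -0.21 to -0.11. The active zone genes BSN (log2 -1.17, adjusted p = 1.93e-05) and UNC13A (log2 -1.11, adjusted p = 3.31e-05) were higher in hippocampus, and SYT4 was higher in amygdala (log2 0.50, adjusted p = 0.00353), but did not pass in the HT pairs alone (adjusted p = 0.0673). Of 15 markers common to neurons, 3 were higher in amygdala, 7 were higher in hippocampus and 5 did not pass. On the log2 scale the median was -0.25, or -0.27 without animals 30 and 43 (2 and 7 passing). The RNA-binding protein gene ELAVL3 (ENSMMUG00000020616) ran from 2356 to 4122 in amygdala (median 3452) and 4789.6 to 7379 in hippocampus (median 5966) without overlap. ELAVL3 differed by log2 -0.83 ± 0.08 SE, adjusted p = 3.48e-07. The neurofilament gene NEFM (log2 -1.26, adjusted p = 5.95e-06) and the nuclear neuronal marker RBFOX3 (log2 -1.06, adjusted p = 1.66e-06) were also higher in hippocampus. STMN2, a microtubule regulator of growing axons, was higher in amygdala in 14 of 14 animals (log2 0.89, adjusted p = 1.24e-06), and the growth cone gene GAP43 in 13 (log2 1.06, adjusted p = 6.89e-06). Of 14 immediate early genes, which neurons switch on within minutes of activity, 1 was higher in amygdala, 7 were higher in hippocampus and 6 did not pass. The median difference was -0.49, and the counts were the same without animals 30 and 43 (median -0.49). EGR1 averaged 999.5 ± 358 in amygdala and 1969 ± 1372 in hippocampus (log2 -0.85, adjusted p = 0.000622) and EGR3 722 ± 313 in amygdala and 1172 ± 435 in hippocampus (log2 -0.77, adjusted p = 0.000363), and KLF10 was the member higher in amygdala (log2 0.55, adjusted p = 0.000729). In hippocampus EGR1 stood at 6045 and 3731 in animals 30 and 43, and at 781 to 2193 in the others. Without those animals EGR1 differed by -0.67 (adjusted p = 0.00257).

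Ion channel genes leaned to hippocampus, against a background of 31.7% higher there and 32.5% higher in amygdala. Of 31 potassium channel genes, 5 were higher in amygdala, 20 were higher in hippocampus and 6 did not pass. Leaving out animals 30 and 43 gave 5 and 18, with a median difference of -0.52 against -0.50. KCNAB2 (ENSMMUG00000016837), a beta subunit of Shaker-type channels, ran from 12181 to 29202 in amygdala (median 23319) and 41288 to 83193 in hippocampus (median 58330), with every amygdala library below every hippocampus library. KCNAB2 differed by log2 -1.37 ± 0.11 SE, adjusted p = 3.85e-08. The inward rectifier gene KCNJ4 (log2 -0.98, adjusted p = 6.99e-05) was lower in amygdala in 14 of 14 animals. Higher in amygdala were KCNK2, a background channel opened by stretch and lipids, at 1752 ± 802 in amygdala and 447 ± 267 in hippocampus (log2 2.03, adjusted p = 1.87e-06), the A-current auxiliary subunit gene KCNIP4 (log2 1.38, adjusted p = 0.000157), KCNV1 (log2 1.04, adjusted p = 0.00122) and KCNH7 (log2 0.75, adjusted p = 0.000466). Of 21 sodium, calcium and HCN channel genes, 3 were higher in amygdala, 11 were higher in hippocampus and 7 did not pass. Leaving out animals 30 and 43 kept both counts and moved the median difference from -0.47 to -0.53. The calcium channel genes CACNA1B (log2 -1.04, adjusted p = 8.84e-06) and CACNA1A (log2 -0.82, adjusted p = 1.11e-05), which trigger transmitter release, and the sodium channel subunit gene SCN2B (log2 -0.82, adjusted p = 1.09e-05) were higher in hippocampus. HCN4, a pacemaker channel, was higher in amygdala (log2 0.81, adjusted p = 6.6e-05).

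Axon guidance genes also leaned to hippocampus. Of 29 tested, 4 were higher in amygdala, 19 were higher in hippocampus and 6 did not pass. These genes had a median difference of -0.77, and 3 and 21 passed without animals 30 and 43 (median -0.74). Without animals 33 and 40 the counts were 2 and 18. UNC5A (ENSMMUG00000002649), a netrin receptor, ran from 1176 to 4808 in amygdala (median 3721) and 6798 to 17964 in hippocampus (median 11074) without overlap. UNC5A differed by log2 -1.64 ± 0.16 SE, adjusted p = 2.16e-07. EPHA4, an ephrin receptor, averaged 1318 ± 721 in amygdala and 5875 ± 3269.6 in hippocampus (log2 -2.14, adjusted p = 5.83e-07). NRP1, a co-receptor of class 3 semaphorins, averaged 946 ± 358 in amygdala and 3121 ± 1299 in hippocampus (log2 -1.62, adjusted p = 2.06e-05). The plexin gene PLXNA1 (log2 -1.05, adjusted p = 8.99e-07) and SEMA6B (log2 -1.11, adjusted p = 1e-05) were higher in hippocampus too. SEMA3A (ENSMMUG00000007555), a secreted ligand of NRP1 and plexins, went the other way: it ran from 245 to 649.8 in amygdala (median 377) and 11.3 to 363 in hippocampus (median 76.8) and was higher in amygdala in 14 of 14 animals (log2 2.40 ± 0.29 SE, adjusted p = 1.92e-06). The largest hippocampal values of SEMA3A were those of animals 30 and 43 (363 and 171), and the other 12 lay at 11.3 to 120.0, below every amygdala library. The median of SEMA3A was 324 in prefrontal and 215 in occipital cortex. The netrin gene NTN4 was higher in amygdala (log2 0.66, adjusted p = 0.000184). Of 15 cadherin and protocadherin genes, which hold synapses and cell layers together, 2 were higher in amygdala, 5 were higher in hippocampus and 8 did not pass. The same counts were found without animals 30 and 43, and the median difference moved from 0.02 to -0.11. With equal totals the median was -0.09, and without animals 33 and 40 -0.12. CDH11 was higher in hippocampus (log2 -1.11, adjusted p = 1.44e-06) and CDH7 in amygdala (log2 1.06, adjusted p = 0.000524).

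Of 31 neuronal transcription factor genes, 4 were higher in amygdala, 12 were higher in hippocampus and 15 did not pass. On the log2 scale the median was -0.04, or 0.02 without animals 30 and 43 (7 and 12 passing). NFIX (ENSMMUG00000019292), a nuclear factor of dentate development, averaged 2585 ± 965 in amygdala and 7716 ± 1977 in hippocampus and was lower in amygdala in 14 of 14 animals (log2 -1.63 ± 0.13 SE, adjusted p = 3.82e-08). The zinc finger gene ZIC1 differed by -1.67 (adjusted p = 0.000833). MEF2C, an activity-regulated factor, was higher in amygdala (log2 1.03, adjusted p = 0.00329), with hippocampal values of 34298 and 16399 in animals 30 and 43 and 2612 to 6677 in the others. Without animals 30 and 43 MEF2C differed by 1.39 (adjusted p = 1.58e-05), and with the myelin covariate it did not pass (adjusted p = 0.0794). LMO3, a LIM-domain cofactor, was higher in amygdala in 13 of 14 animals (log2 1.73, adjusted p = 2.51e-06). RORB stood at 0.09 (adjusted p = 0.855), and at 0.64 without animals 30 and 43 (adjusted p = 0.0476).

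Of 17 genes of perineuronal nets and extracellular matrix, 2 were higher in amygdala, 9 were higher in hippocampus and 6 did not pass. The median difference was -0.48, and without animals 30 and 43 the counts were 1 and 10 (median -0.61). The proteoglycan genes NCAN (log2 -0.84, adjusted p = 0.000574) and ACAN (log2 -0.99, adjusted p = 0.000361) and the tenascin gene TNC (log2 -1.37, adjusted p = 4.04e-05) were higher in hippocampus. HAPLN1 (ENSMMUG00000061282), the link protein that ties proteoglycans to hyaluronan, ran from 712 to 1724 in amygdala (median 1057) and 321 to 681 in hippocampus (median 502) without overlap, higher in amygdala. HAPLN1 differed by log2 1.09 ± 0.12 SE, adjusted p = 9.65e-07. Of 16 genes of cholesterol synthesis and uptake, 2 were higher in amygdala, 9 were higher in hippocampus and 5 did not pass. The same counts were found without animals 30 and 43, and the median difference moved from -0.41 to -0.50. SREBF2, the master regulator of the pathway, averaged 19807 ± 3204 in amygdala and 34336 ± 6733 in hippocampus (log2 -0.78, adjusted p = 1.6e-06). CYP46A1, which clears cholesterol from neurons, was higher in hippocampus (log2 -0.47, adjusted p = 0.00185). MSMO1, a sterol oxidase, was higher in amygdala in 14 of 14 animals (log2 1.23, adjusted p = 2.8e-08). In a comparison that shares the hippocampus libraries, hippocampus lay above cortex for all 16 of these genes, with a median of 0.55 on the log2 scale. This counts signs without a test, and the share of all rows above cortex by sign is not given here. Another measure is the test, by which 45.7% of all tested rows differed between hippocampus and cortex in either direction.

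Of 14 astrocyte markers, 4 were higher in amygdala, 6 were higher in hippocampus and 4 did not pass. Their median difference was -0.29, and -0.45 without animals 30 and 43 (counts of 4 and 7). ETNPPL (ENSMMUG00000011903), a phospholyase of astrocytes, ran from 14227 to 23483 in amygdala (median 20159) and 5670 to 12177 in hippocampus (median 7801) without overlap. ETNPPL differed by log2 1.25 ± 0.11 SE, adjusted p = 9.16e-08, and the water channel gene AQP4 was also higher in amygdala (log2 0.76, adjusted p = 2.49e-05). MLC1, an astrocyte junction protein, was higher in hippocampus (log2 -0.63, adjusted p = 0.000182), as was the sodium pump subunit gene ATP1B2 (log2 -0.60, adjusted p = 0.00013). Of 16 microglia markers, 1 was higher in amygdala, 2 were higher in hippocampus and 13 did not pass. These genes had a median difference of -0.003, and 1 and 5 passed without animals 30 and 43 (median -0.10). Without animals 33 and 40, 3 were higher in amygdala, 0 in hippocampus and 13 did not pass (median 0.11), so this list has no firm direction. P2RY12, the purinergic receptor of resting microglia, was higher in amygdala in 14 of 14 animals, at 2672 ± 606 in amygdala and 1270.1 ± 295 in hippocampus (log2 1.08, adjusted p = 6.79e-08), while CX3CR1 stood at -0.13 (adjusted p = 0.306) and passed without animals 30 and 43 (-0.24, adjusted p = 0.0479). Of 10 myelin markers, 0 were higher in amygdala, 4 were higher in hippocampus and 6 did not pass. Counts without animals 30 and 43 were 0 and 5, and the median difference went from -0.48 to -0.57. Their summed level was 167593 to 642625 in amygdala and 144293 to 579148 in hippocampus. The protease gene KLK6 differed by -0.82 (adjusted p = 0.000235). Of 9 oligodendrocyte precursor markers, 2 were higher in amygdala, 3 were higher in hippocampus and 4 did not pass. On the log2 scale the median was -0.29, or -0.30 without animals 30 and 43 (3 and 3 passing). LHFPL3 (log2 1.13, adjusted p = 1.8e-07) and PTPRZ1 (log2 0.54, adjusted p = 0.000108) were higher in amygdala. With the mean of myelin markers as a covariate 7327 rows were called in the comparison of the regions, against 8737 without it. This covariate averaged all 16 tested myelin markers, not only the 10 alone in their position. Its rows with a shared position may hold different transcripts in the 2 regions, so calls lost under it are uncertain.

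Of 15 endothelial and pericyte markers, 2 were higher in amygdala, 9 were higher in hippocampus and 4 did not pass. The median difference was -0.50, and the counts were the same without animals 30 and 43 (median -0.44). The junction gene CDH5 (log2 -1.24, adjusted p = 0.00174) and the pericyte receptor gene PDGFRB (log2 -0.70, adjusted p = 0.000925) were higher in hippocampus, and EMCN, an endothelial sialomucin, was higher in amygdala in 14 of 14 animals (log2 0.83, adjusted p = 6.58e-06). Of 13 meningeal and fibroblast markers, 0 were higher in amygdala, 5 were higher in hippocampus and 8 did not pass. Leaving out animals 30 and 43 gave 1 and 5, with a median difference of -0.48 against -0.22. Of 10 choroid plexus markers, 1 was higher in amygdala, 4 were higher in hippocampus and 5 did not pass. Their median difference was -0.65, and -0.76 without animals 30 and 43 (counts of 1 and 5). The summed level of the list was 9376 to 36312 in amygdala and 7088 to 1543172 in hippocampus, or up to 65465 without animals 33 and 40. Without these animals 1 choroid plexus marker was higher in amygdala and 2 in hippocampus, and TTR, at -2.69 with all animals (adjusted p = 0.042), did not pass (adjusted p = 0.207). It also failed without animal 31, 32, 33, 34, 37, 38, 39, 40 or 41 alone (adjusted p 0.0529 to 0.0957). Of 16 ependymal cilia markers, 2 were higher in amygdala, 3 were higher in hippocampus and 11 did not pass. These genes had a median difference of -0.35, and 2 and 8 passed without animals 30 and 43 (median -0.47). The count of ependymal markers higher in hippocampus was 1 without animals 33 and 40, and FOXJ1, the factor that builds motile cilia, averaged 99.7 ± 85.7 in amygdala and 687 ± 1153 in hippocampus (log2 -2.11, adjusted p = 0.00076). High single libraries raised the hippocampal mean of FOXJ1. Its values there ran from 43.2 to 4309 with a median of 276, against a median of 65.2 in amygdala. The part of admixed choroid plexus and ependyma in other differences was not tested.

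Of 18 interferon response genes, 5 were higher in amygdala, 3 were higher in hippocampus and 10 did not pass. The same counts were found without animals 30 and 43, and the median difference moved from 0.06 to -0.01. With equal totals the median was -0.04. The antiviral genes IFIT1 (log2 0.81, adjusted p = 0.000891), IFIT5 (log2 0.74, adjusted p = 1.12e-05) and IFI44L (log2 0.96, adjusted p = 0.000107) were higher in amygdala, and STAT2, a transcription factor of the pathway, was higher in hippocampus in 14 of 14 animals (log2 -0.59, adjusted p = 5.25e-06).

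**Figure D4:**
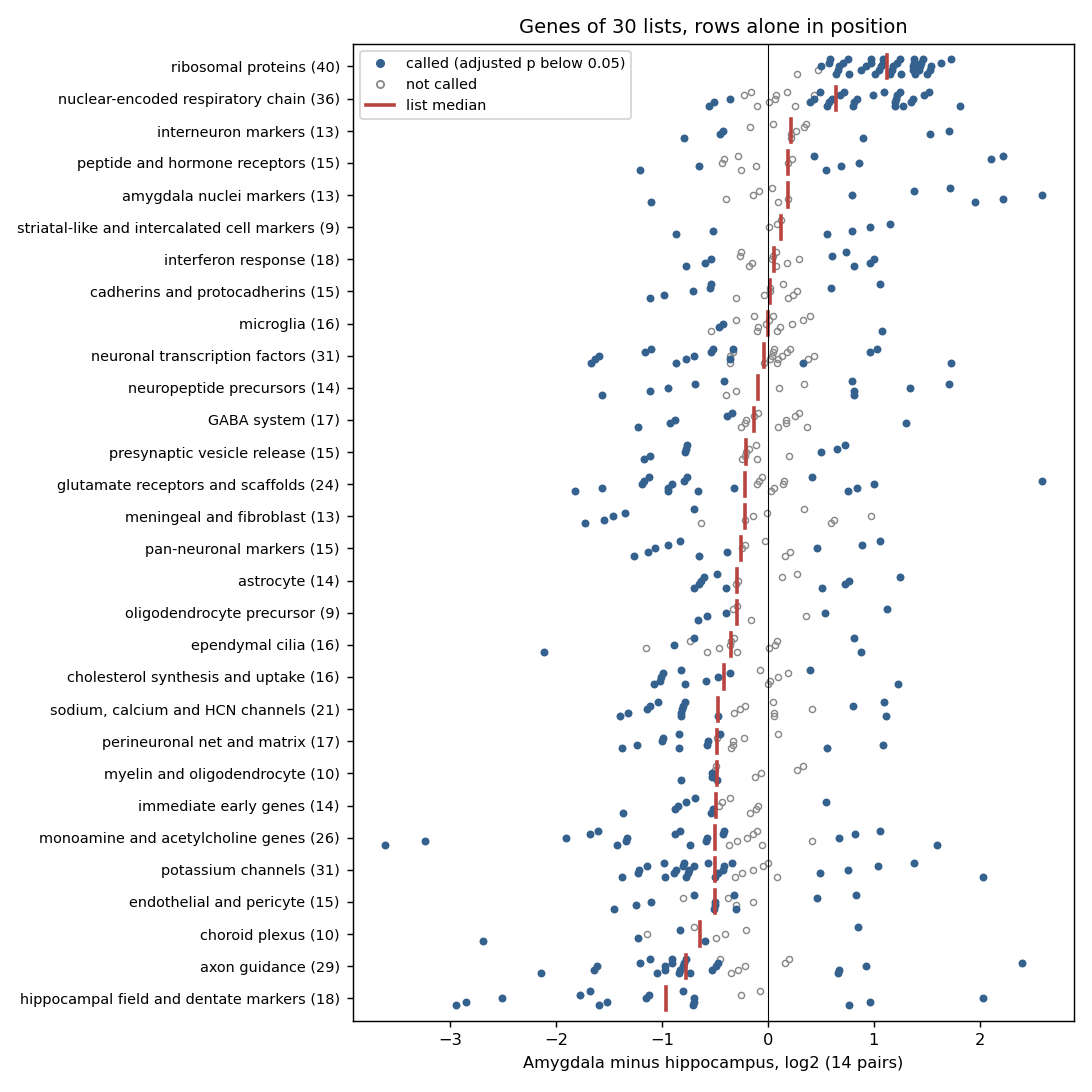
Paired log2 difference, amygdala minus hippocampus, of the genes of 30 lists from rows alone in position (number of genes in brackets), ordered by the list median (red bar). Filled points passed the test. Ribosomal protein genes have the highest median (1.12) and hippocampal field markers the lowest (-0.96).

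Ribosomal protein and respiratory chain genes were higher in amygdala, by amounts that varied widely between animals. Of 40 ribosomal protein genes, 38 were higher in amygdala, 0 were higher in hippocampus and 2 did not pass. Leaving out animals 30 and 43 kept both counts and moved the median difference from 1.12 to 1.23. RPL39 (ENSMMUG00000018391), a protein of the large subunit, ran from 20328 to 151180 in amygdala (median 42340) and 8599 to 28085 in hippocampus (median 14428) and was higher in amygdala in 13 of 14 animals (log2 1.73 ± 0.29 SE, adjusted p = 6.76e-05). Of 36 nuclear-encoded genes of the respiratory chain, 24 were higher in amygdala, 3 were higher in hippocampus and 9 did not pass. The median difference was 0.64, and the counts were the same without animals 30 and 43 (median 0.70). COX7B (ENSMMUG00000015861), a subunit of cytochrome c oxidase, averaged 91927 ± 67993 in amygdala and 23151 ± 14798 in hippocampus. COX7B differed by log2 1.82 ± 0.36 SE, adjusted p = 0.000272, and NDUFB5 of complex I 32948 ± 13314 in amygdala and 11306 ± 4756 in hippocampus (log2 1.52, adjusted p = 1.28e-05). Both groups were split by treatment as a description, since they had been picked out in an earlier look at these data. The mean difference over the 40 ribosomal genes was -0.95 to 1.94 (median 0.35) in the 7 OvH animals and 0.14 to 2.77 (median 2.23) in the 7 HT animals, and the ranges overlapped. Over the 36 respiratory genes it was -0.38 to 1.03 (median 0.14) in OvH and 0.15 to 1.51 (median 1.31) in HT. In OvH the lowest and highest ribosomal values belonged to animals 43 (-0.95) and 30 (1.94), whose hippocampus libraries went against their label.

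**Figure D5:**
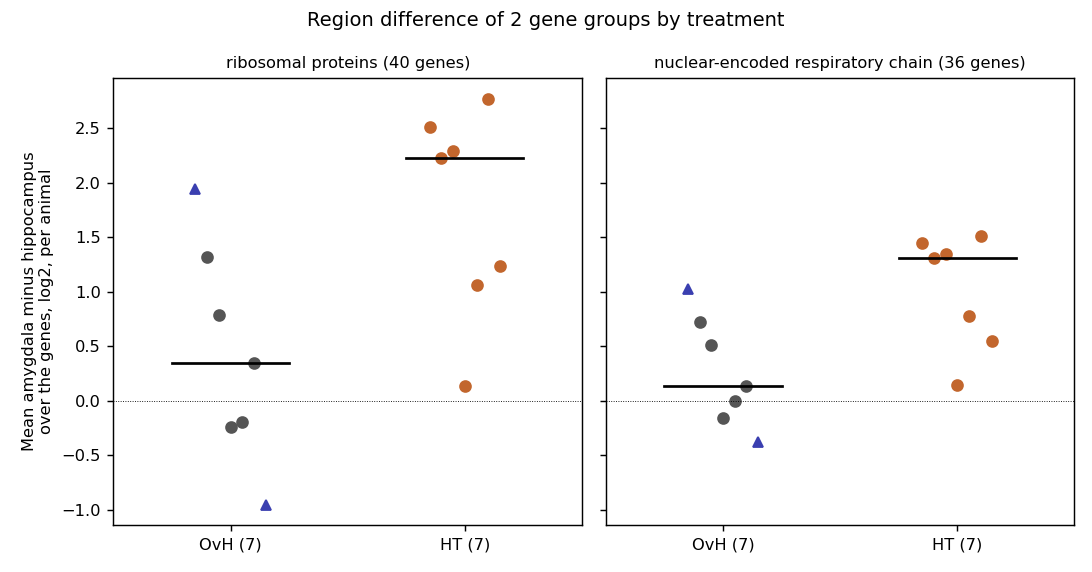
Mean log2 difference, amygdala minus hippocampus, over 40 ribosomal protein genes (left) and 36 respiratory chain genes (right) in each animal, by treatment, with the group median as a bar and animals 30 and 43 as triangles. The median of the ribosomal genes is 0.35 in the 7 OvH animals and 2.23 in the 7 HT animals, with overlapping ranges.

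Whether the region difference itself changed with estradiol was tested by an interaction term. Limma called 0 of 13504 rows (0.0%), with a lowest adjusted p of 0.269, while 1818 rows (13.5%) had an unadjusted p below 0.05, 1310 with a larger amygdala-minus-hippocampus difference in HT and 508 with a smaller one. This split depended on the scaling: with equal totals 2924 rows had an unadjusted p below 0.05, 600 with a larger and 2324 with a smaller difference in HT, and no row was called. The median interaction over all tested rows was -0.03, and -0.26 with equal totals. By edgeR on recovered reads 0 rows were called and by DESeq2 224, 216 of them with the larger difference in HT. The interaction was positive for 40 of 40 ribosomal protein genes (median 1.36) and for 28 of 36 respiratory chain genes (median 0.77), and 34 and 24 of these had an unadjusted p below 0.05. With equal totals 40 and 27 were positive, with medians of 1.13 and 0.53, and 29 and 21 had an unadjusted p below 0.05. Without animals 30 and 43 they were 38 and 25. DESeq2 called 16 of the 40 and 12 of the 36. Both groups had been picked out in an earlier look at these data. Their genes were measured in the same 14 animals and are not replicates, so these counts are a description. NDUFB9 of complex I averaged 104010 ± 42196 in HT and 30674 ± 8977 in OvH amygdala, and 23137 ± 11573 and 32671 ± 29812 in hippocampus (SD, n = 7 each). Its difference was 2.19 in HT and 0.22 in OvH (interaction adjusted p = 0.269 by limma). UOX, a urate oxidase gene, had differences of 2.38 and 0.41 in the same order. In the other direction, the interneuron calcium buffer gene CALB2 differed by -0.35 in HT and 0.78 in OvH, with amygdala values of 2544 ± 1007 and 4598 ± 2263. The synaptic adhesion gene TENM1 differed by 0.11 and 1.57, and the collagen gene COL25A1 by -1.32 and 0.36. None of these 5 interactions passed the adjustment by limma (lowest adjusted p = 0.269). Fitted on the OvH pairs alone 4532 rows differed between the regions and on the HT pairs alone 8106, and the difference between these counts was not itself tested.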

How the data were processed

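The deposited table holds a normalized read signal made by the authors, upper-quartile normalized per its file name, for 17807 identifiers in 56 libraries. Per the submitters' processing notes, FastQC 0.1.1.2, Trimmomatic, STAR 2.7.3a with the build Mmul_10, and edgeR 3.28.0 were used. The counting program and its strand setting are not given in the sources used here, so overlapping and antisense genes cannot be told apart. Undoing each library's scaling returned whole reads for 100% of values within 0.01 reads, and those went to edgeR 4.0.16 and DESeq2 1.42.0 as alternatives (8665 and 9133 rows called). Symbols came from an identifier table, and no column lacked a sample. 

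The 28 amygdala and hippocampus libraries were fitted in R 4.3.3 with limma 3.58.1 on log2(value + 1), for rows with a mean of at least 10, with the animal as a block from the labels and an intensity trend. Tests were two-sided, with Benjamini-Hochberg adjustment at 0.05 over all tested rows. Deviations of the paired libraries correlated at 0.061 to 0.751 (median 0.265), above 0.1 in 12 of 14 animals. By these deviations only 7 of 14 amygdala libraries correlated most with the hippocampus library of their own animal. The interaction compared the paired differences of HT and OvH, and hippocampus was compared with cortex over 42 libraries. Named genes were the 15 largest differences in each direction with a mean of at least 100 in the higher region, a symbol on 1 identifier and at least 16 of 20 neighbouring rows meeting the level rule. To these came the 10 largest interactions in each direction, up to 4 genes of each list in each direction, and steroid receptors. That the row be alone in its position was added after seeing the data, and other named list members were chosen after their values were seen. The members and the lists were chosen with earlier results of these data known. Alternatives were other scaling, pseudocount 10, other filters, no block, all libraries in 1 fit, a myelin covariate, left-out animals and 1 treatment alone. The myelin covariate was the mean of 16 tested markers, including rows with a shared position. The model was tested on simulated data. Some genes are not reported here. Separate animals are the replicates, and no library repeated another within sampling noise.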

Additional observations from a re-analysis of the deposited data

Results flagged for a closer look

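In each treatment group of 7 animals the paired differences of selected genes and the mean paired difference of each list were searched for an animal far from the others, by the gap to its nearest neighbour as a share of the whole range (limit 0.568). Chance alone gives about 1 in 20, and 3 of 120 groups were found. FIBCD1 in the HT animal 39 differed by 0.248 between amygdala and hippocampus, where the other 6 HT animals lay at -4.40 to -2.57. The mean difference of the GABA genes in the OvH animal 30, whose hippocampus library went against its label, was -0.773, against -0.05 to 0.33 in the others. The mean difference of the myelin genes in the OvH animal 35 was -1.429, against -0.338 to 0.448 in the others.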

How the results depend on the processing

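The number of rows called stayed within 1.5 times of 8737 under other scaling, low-value filters, pseudocounts, tools and left-out animals. It was 8239 to 8954 rows when 1 animal was left out, with 1168 to 1506 at least 2-fold higher in amygdala and 806 to 1048 at least 2-fold higher in hippocampus. Leaving out the pairing (no replicate block) gave 8125 rows, 4184 higher in amygdala and 3941 higher in hippocampus. Of these, 8044 were also called, in the same direction, with the animal as a block. Calls by edgeR numbered 8665 and by DESeq2 9133. With levels within 1 in place of 2, 319 and 326 rows were at least 2-fold higher in amygdala and in hippocampus, an effect of the rule itself, which removes large differences. With neighbour support required, 5216 of 8076 rows were called (2645 and 2571, of which 730 and 529 at least 2-fold). Rows alone in position, chosen after seeing the data, gave 836 and 578 at 2-fold. Rows alone among all identifier numbers gave 3212 calls (1614 and 1598, of which 430 and 299 at 2-fold), from fewer rows tested. The 7 OvH pairs alone gave 4532 calls (2287 and 2245, of which 702 and 606 at 2-fold), and the 7 HT pairs alone 1928 rows at least 2-fold higher in amygdala; the cause was not tested. DESeq2 called 224 rows for the interaction, where limma and edgeR called 0. Over 189 named genes and 6445 pairs of gene and setting, 283 lost the call. These were 71 genes, of which 64 lost it in the fit of the OvH pairs and 36 under at least 1 other setting. Of all pairs 19 gained the call and 8 turned sign. Of the genes named here, ACAN, ADRA2C, C1QL2, CNIH2, COX7B, CYP46A1, DRD5, EGR3, ESR2, FIBCD1, FOXJ1, GABBR1, IFIT1, KCNH7, KCNV1, MEF2C, MLC1, NCAN, NMB, NR3C1, NTF3, NTN4, PROX1, PTHLH, RELN, TAC1 and TTR did not pass in the OvH pairs alone. All 8 turns were of genes without a call: RORB (-0.013 with equal totals, -0.14 without animals 33 and 40, -0.17 to 0.38 with 1 animal left out, -0.35 with the myelin covariate), PPP1R1B (-0.012 with equal totals), GRIA2 (-0.14 to 0.020 with 1 animal left out, 0.17 in the OvH pairs) and CX3CR1 (0.020 with the myelin covariate). The row defect limits all names to rows alone in their position, and rows with a shared position may compare different transcripts. Depth of at least 34.6 mega-reads leaves genes with values near 10, such as CHRNB4 in amygdala, resting on few reads.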

Other observations

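Rows alone in their table position whose level did not meet the level rule were outside the comparison. They are the rows alone in position that differ most between amygdala and the other regions. In a fit of all rows alone in position, chosen after seeing the data, 242 such rows were tested and 215 were called, 121 higher in amygdala and 94 higher in hippocampus. The rule that left them out uses the same levels, so their number is a description. More than 64-fold from the mean of the other regions stood 10 of the 10002 rows alone among known identifiers. Among the 5063 rows alone over all identifier numbers it was 0. FSHB, at 2951 in amygdala and 25.9 in hippocampus, was alone only among the known identifiers. The genes named here were chosen after their values were seen. STAC, an adaptor protein of calcium channels, averaged 224 in amygdala and 19.9 in hippocampus (log2 3.53 ± 0.29 SE, adjusted p = 5.56e-08), and was higher in 14 of 14 animals. CALCR, the calcitonin receptor, averaged 235 in amygdala and 35 in hippocampus (log2 2.68 ± 0.26 SE, adjusted p = 3.92e-07). CYP19A1, the aromatase that makes estradiol from androgens, averaged 364 in amygdala and 37.5 in hippocampus (log2 4.02 ± 0.41 SE, adjusted p = 5.24e-07) and was higher in amygdala in 14 of 14 animals, but its row was alone only among the known identifiers and not when every identifier number was allowed for. Lower in amygdala were CHRNA2, a nicotinic receptor subunit, at 8.47 in amygdala and 172 in hippocampus (log2 -4.22 ± 0.30 SE, adjusted p = 1e-08), and the transcription factor gene POU3F1, at 20.2 in amygdala and 158 in hippocampus (log2 -3.29 ± 0.43 SE, adjusted p = 4.97e-06). ARC, an activity-induced synaptic gene (-1.96), and IGFBP2, a binding protein of insulin-like growth factors (-2.23), were lower in amygdala as well.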
